A study of Homo sapiens with 2 samples.

Results

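The cytosolic ribosomal protein genes form the family that supplies the proteins of the ribosome, and their binding by the RNA-binding protein Musashi-2 (MSI2) was read from crosslinking and immunoprecipitation followed by sequencing (CLIP-seq). The family was given as 59 Ensembl gene IDs, and all peaks listed under these IDs were taken. The IDs were chosen by gene family and not by a measured value, although earlier results of these data were known. Of the 59 IDs, 53 carried a peak in at least 1 of the 2 deposited lists, among 8801 IDs with a peak in all. They held 226 of the 25920 peaks of replicate 1 and 211 of the 25243 peaks of replicate 2. Both libraries belonged to 1 group of untreated NB4 cells, an established human acute promyelocytic leukaemia line. Cells were crosslinked on ice with ultraviolet light at 400 mJ per square centimetre and MSI2 was precipitated with a commercial anti-MSI2 antibody. The labels do not say whether the replicates came from separate cultures, and no library from input RNA, from a control antibody or from cells without MSI2 was analysed here. The comparison that this design allows is therefore how well the sites recurred between the libraries. Markers of promyelocytes were not checked, because the lists give gene IDs without names.

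A whole number ends the name of each peak. It is called the tally below, was never under 3 and behaved like a number of reads, although no header or label explains it. A tally depends on how much of an RNA was present as well as on how much of it was crosslinked to MSI2, and these cannot be told apart without input RNA. The total reads of each library are unknown, and the summed tallies, 155598 in replicate 1 and 133644 in replicate 2, count only what was called as peaks. Gene symbols were assigned by position, as the processing summary explains. The 6 IDs without a peak have no position and keep their ID. They are ENSG00000105640, ENSG00000114391, ENSG00000124614, ENSG00000134419, ENSG00000147604 and ENSG00000177954.

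The ribosome has a small subunit, which decodes the mRNA, and a large subunit, which joins amino acids. RPS genes encode the proteins of the small subunit, RPL genes those of the large subunit, and RPLP genes the acidic stalk that recruits translation factors. Their mRNAs are short, very abundant, and known for a run of pyrimidines at the 5′ end, the terminal oligopyrimidine tract, through which their translation responds to growth signals. Musashi proteins bind single-stranded RNA at sites with a UAG core and are known mainly for control of translation and stability from the 3′ ends of mRNAs.

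The sequence around the annotated transcription start shows this feature in many members of the family, though not in all. The bases below are the 10 before and the 20 from the annotated start of the leading members by tally that the RefSeq table holds, on build GRCh38.p14 and the transcribed strand, with the pyrimidine run that covers the start base in capitals:
RPS3: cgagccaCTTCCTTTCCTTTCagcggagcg
RPS23: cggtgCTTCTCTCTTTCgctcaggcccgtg
RPL4: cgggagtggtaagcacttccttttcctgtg
RPS6: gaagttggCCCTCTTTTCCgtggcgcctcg
RPL18: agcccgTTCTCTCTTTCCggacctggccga
RPS24: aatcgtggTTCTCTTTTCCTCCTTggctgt
RPL37A: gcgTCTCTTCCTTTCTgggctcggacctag
The windows lie at chr11:75399508-75399537 on the plus strand for RPS3, chr5:82278335-82278364 on the minus strand for RPS23 and chr15:66504836-66504865 on the minus strand for RPL4. RPS6 lies at chr9:19380217-19380246 (minus), RPL18 at chr19:48619159-48619188 (minus), RPS24 at chr10:78033853-78033882 (plus) and RPL37A at chr2:216498834-216498863 (plus). The base at the annotated start of RPL4 is not a pyrimidine, so no run was marked there. A run of 6 or more bases, each C or T, covered the start in 31 of the 44 members with an entry, or 70.5%, against 7.51% of the 27305 genes in that table. This is a feature of the annotated starts only. Whether any MSI2 peak lies on it was not measured, because the peaks are on hg19 and no genome of that build was used.

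Most ribosomal protein genes that had an MSI2 peak had peaks in both libraries and at recurring positions. The count of 53 among the 59 given IDs has no share of all genes beside it, because the lists hold only IDs with a peak. It is therefore not read as a result about the family. Of the 53 members with a peak, 47 had peaks in both lists, or 88.7%, against 63.1% of all 8801 IDs. A peak was counted as shared where at least 1 nt of it was covered on its own strand by a peak of the other list. Such a peak was present in 43 members, or 81.1% (95% Wilson interval 68.6% to 89.4%), against 45.5% of all IDs. Among IDs with peaks in both lists, 43 of 47 members (91.5%) and 3947 of 5505 other IDs (71.7%) had a shared peak. Members also carried more peaks, with a median of 4 per ID in each replicate against 2 in other IDs, and an ID with more peaks has more chances of an overlap, which was not adjusted for here.

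None of the 100 IDs with the largest summed tallies of both lists was a member, and the highest-ranked member, RPL23, was at rank 167. As only 53 of the 8801 IDs with a peak are members, hardly any would be expected among 100 IDs. That count is therefore not a result about the family. Members made up 0.872% of the peaks of replicate 1 (0.766% to 0.993%) and 0.836% of those of replicate 2 (0.731% to 0.956%), and held 1.04% and 1.02% of the summed tallies. The median summed tally over both lists was 41 for members with a peak and 15 for other IDs, and 41 of the 53 members lay above the median of the others. Tallies were spread unevenly within the family: the 15 leading members held 60.9% of its tallies, while RPL10, RPS2, RPS3A and RPS27A each had a single peak with a tally of 3.

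**Figure D1:**
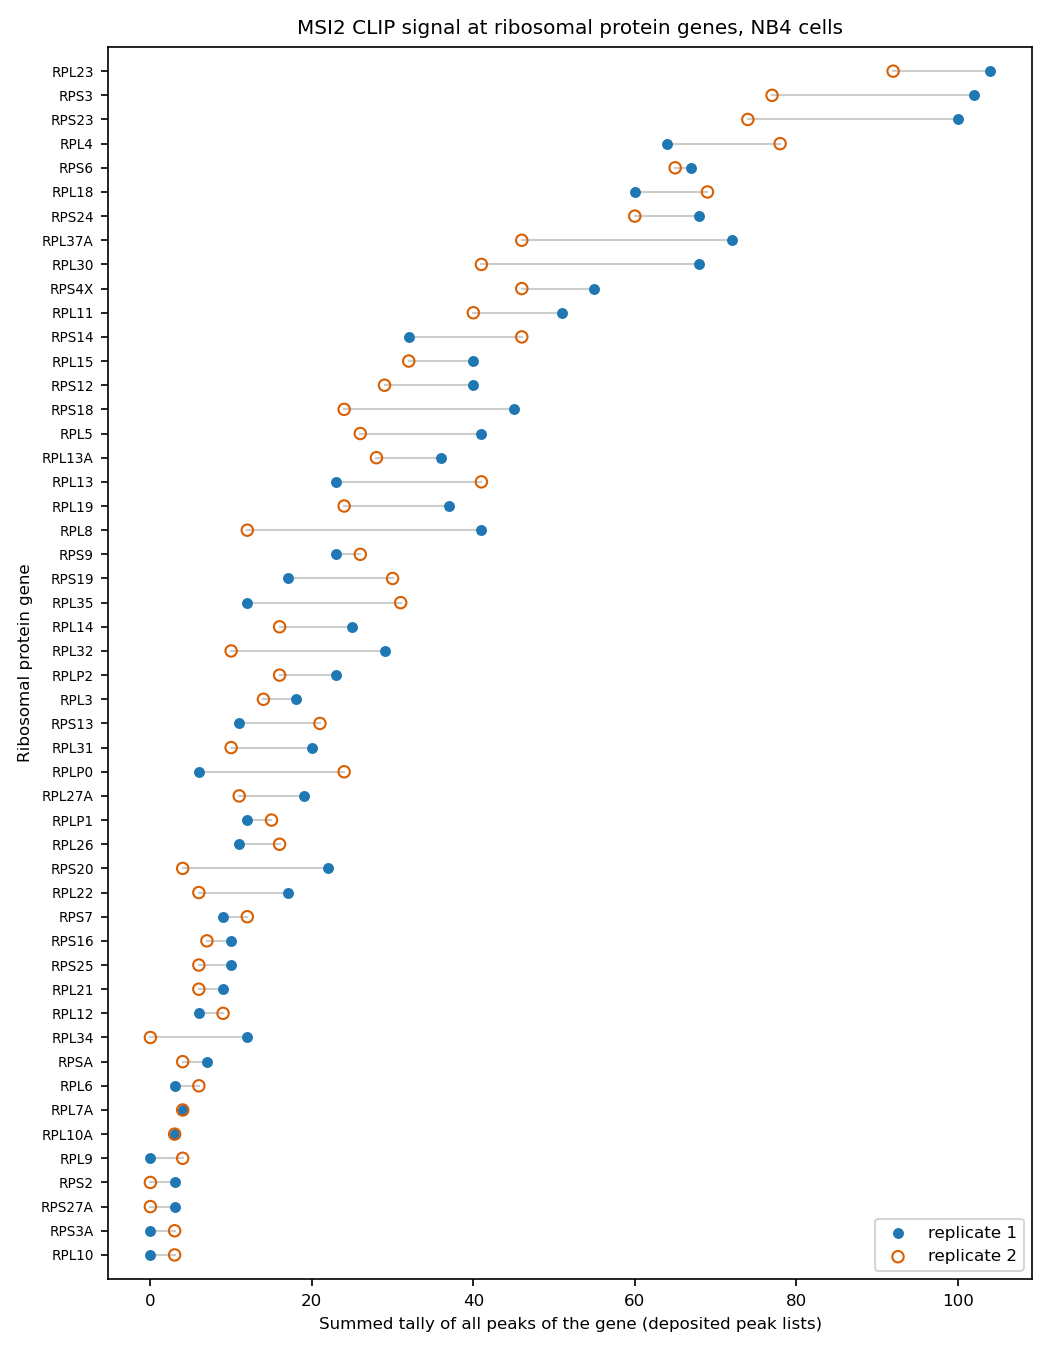
Summed tally of all peaks of each of 50 ribosomal protein genes with a peak (horizontal axis, tally) in replicate 1 (filled points) and replicate 2 (open points), with the genes ordered by their total. RPL23, RPS3 and RPS23 lie highest in total, between 74 and 104 in each replicate, and the genes at the bottom have a single peak with a tally of 3 or 4 in 1 replicate.

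In the large subunit, 28 of the given RPL genes had a peak, 25 of them in both lists and 23 with a shared peak. The 6 IDs without a peak were not assigned to a subunit, so the counts by subunit cover only genes with a peak. RPL23, a protein on the face that meets the small subunit and one that also binds MDM2, had the strongest site of the family. It lay on the minus strand at chr17:37006615-37006729 in replicate 1, where its tally was 45 and its deposited p 1.52e-38, and at chr17:37006619-37006718 in replicate 2, where they were 39 and 2.57e-34. A further RPL23 site downstream, at chr17:37006396-37006457, had tallies of 19 and 23, and a site near the 5′ end of its peaks had 17 and 11. In all, RPL23 had 6 peaks with a summed tally of 104 in replicate 1 and 6 peaks with 92 in replicate 2, and 5 of the former were shared. The strongest site was the same in both libraries, and the order of the 3 leading sites was too.

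RPL4, whose loop narrows the peptide tunnel, had 9 peaks in replicate 1 and 10 in replicate 2, with summed tallies of 64 and 78. Its sites were spread along the whole 3255 nt between its first and last peak, and 8 peaks of each replicate were shared. The strongest in replicate 1, at chr15:66793307-66793376, had tallies of 16 and 13, while a site near the 5′ end had 9 and 14. RPL18 on chromosome 19 had 8 and 11 peaks with summed tallies of 60 and 69, and its strongest shared peaks had tallies of 16 and 10, and of 13 and 11. The strongest peak of RPL4 or RPL18 reached 16, against 45 for that of RPL23.

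RPL37A, a zinc-binding protein, had tallies of 22 and 12 at chr2:217364671-217364757 and of 18 and 12 at a further site, chr2:217366064-217366147. Its summed tally was 72 in replicate 1 and 46 in replicate 2. RPL30, which in yeast represses splicing of its own transcript, had a minus-strand peak at chr8:99054886-99055004 with tallies of 22 and 13, and a last peak at its 3′ end with 13 and 10. Its summed tally was 68 and 41. RPL11, which with RPL5 joins a 5S RNA particle that restrains MDM2, had 7 peaks in each replicate with summed tallies of 51 and 40, and 6 of the former were shared. RPL15 had 6 peaks in each replicate, with summed tallies of 40 and 32. Of these 4 genes all had the higher summed tally in replicate 1.

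In the small subunit, 22 of the given genes had a peak, 19 of them in both lists and 17 with a shared peak. RPS3, which lines the channel where mRNA enters, had many sites and no dominant one. Its 11 peaks in replicate 1 had tallies between 5 and 13, its 10 peaks in replicate 2 between 4 and 13, and 9 peaks of each were shared. The summed tallies were 102 and 77. The strongest RPS3 site of replicate 2, at chr11:75115766-75115837 on the plus strand, had a tally of 13 there and 8 in replicate 1, so the order of its sites differed between the libraries.

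RPS23, a protein of the decoding centre, had peaks toward both ends of its peak span that were strong in each library. The 3′ end peak, at chr5:81569304-81569417 on the minus strand, had tallies of 19 and 17, and a peak toward the 5′ end, at chr5:81573611-81573670, had 12 and 21. A further peak of replicate 1, at chr5:81571854-81571937 with a tally of 19, had no overlapping peak in replicate 2. It was the strongest unshared peak of the family, although a peak of replicate 2 with a tally of 3 lay 5 nt away. RPS6, the substrate of S6 kinases, had its strongest peak at the 5′ end of its peaks, at chr9:19379485-19379549, with tallies of 16 and 16. Another near the 3′ end had 13 and 12. RPS6 differed least between the libraries among the leading members, with summed tallies of 67 and 65.

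RPS24, one of the genes mutated in Diamond-Blackfan anaemia, had a dominant site at the 3′ end of its peaks. This site, at chr10:79800371-79800438 on the plus strand, had tallies of 24 and 22, and no other RPS24 peak exceeded 14 in either library. RPS4X, an X-linked gene, had tallies of 19 and 17 at the 3′ end of its peaks, at chrX:71492453-71492546. RPS14, lost in the 5q deletion syndrome, likewise had its strongest peak at that end, with 11 and 12, at chr5:149823837-149823917. RPS12 had its strongest peak of replicate 1 at the 5′ end, with a tally of 22 there and 9 in replicate 2, and a peak at the 3′ end with 10 and 11. The sites of RPS24, RPS4X and RPS14 at the 3′ end were alike in both libraries, whereas the 5′ site of RPS12 was not.

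**Figure D2:**
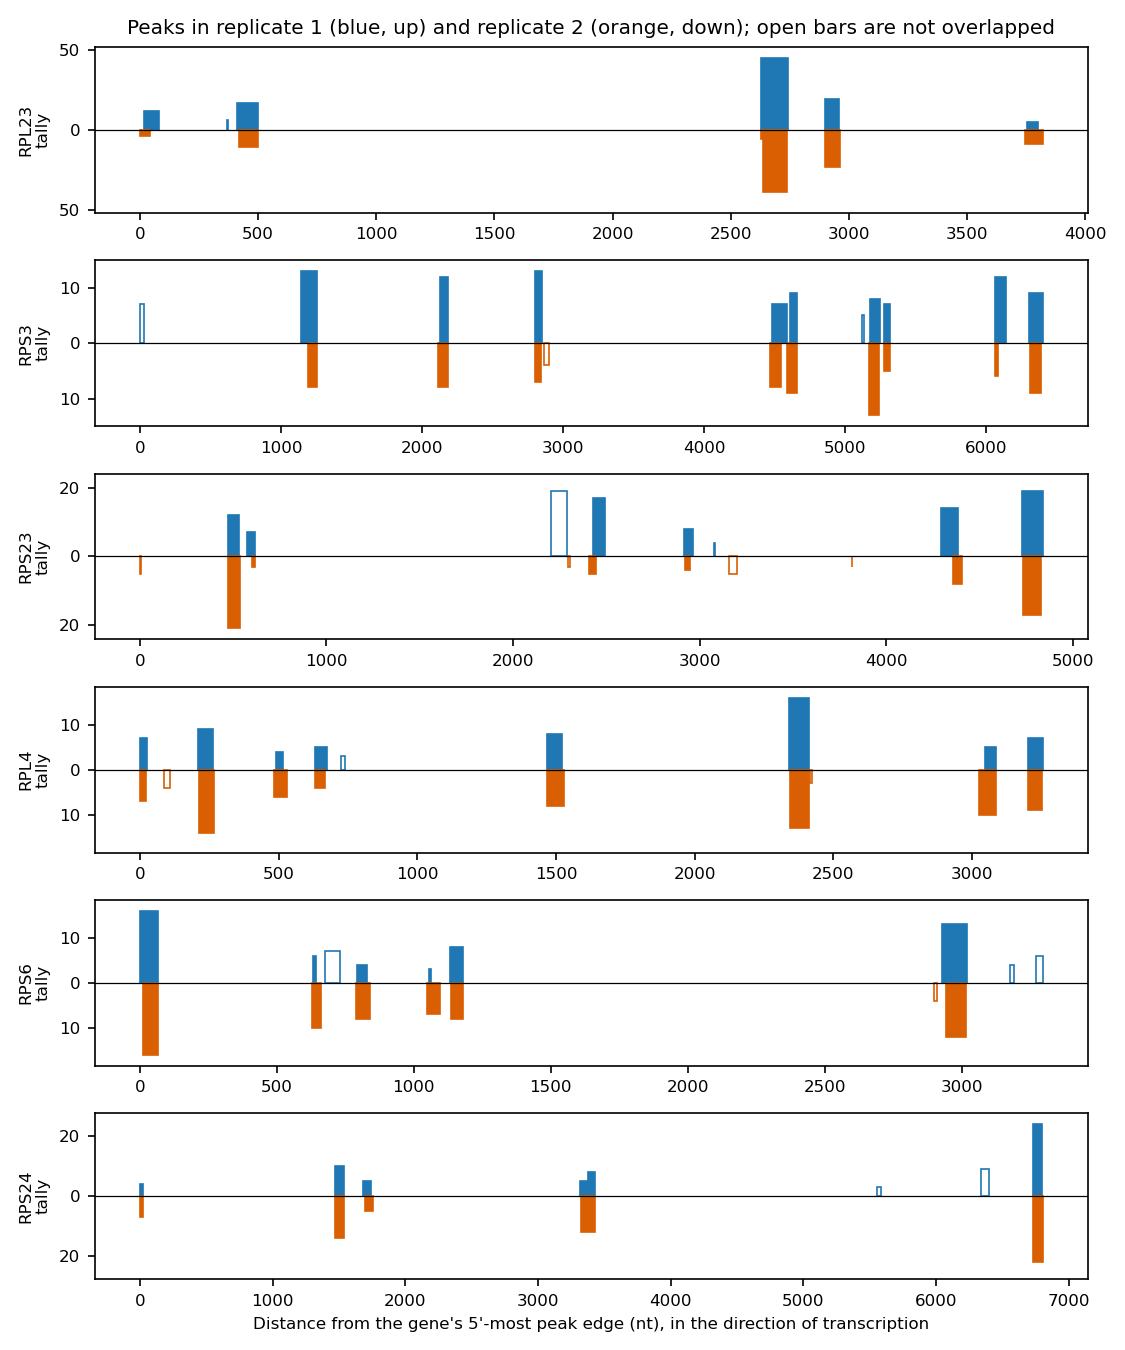
Peaks of 6 leading ribosomal protein genes by distance in nt from the 5′-most peak edge (horizontal axis) and tally (vertical axis), with replicate 1 above and replicate 2 below the line; filled bars are overlapped by a peak of the other replicate and open bars are not, and very narrow peaks appear as lines. RPL23 and RPS24 each have a dominant site in both replicates (tallies of 45 and 39, and of 24 and 22), while RPS3 carries many sites with tallies of 4 to 13.

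Further members of both subunits had summed tallies over both lists no larger than those of the 15 leading members. Each of those named in this paragraph had at least 1 shared peak, but not all of their peaks recurred. In replicate 1 the shared peaks ranged from 1 of 5 in RPL32 to 5 of 5 in RPS9. In replicate 2 they ranged from 2 of 9 in RPL35 to 4 of 4 in RPL5. RPL5, the partner of RPL11 in the 5S particle, had summed tallies of 41 and 26, with its strongest shared site at chr1:93300346-93300414 (tallies of 13 and 11). RPL14 had most of its signal at chr3:40503759-40503851, with tallies of 16 and 12 of summed tallies of 25 and 16. RPL19 had 37 and 24, RPL13A 36 and 28, and RPL32 29 and 10. Among small subunit genes, RPS18 had summed tallies of 45 and 24. RPS9 had 23 and 26, and RPS20 had 22 and 4. Apart from RPS9, all of these genes were higher in replicate 1. Others of similar rank went the other way, such as RPL13 with 23 and 41 and RPL35 with 12 and 31. Over the whole family, 33 members were higher in replicate 1 and 18 in replicate 2.

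The acidic stalk genes had summed tallies over both lists of 27 to 39, below the family's median of 41. RPLP0, the base of the stalk, had 1 peak with a tally of 6 in replicate 1 and 5 peaks summing to 24 in replicate 2. RPLP1 had summed tallies of 12 and 15, and RPLP2 had 23 and 16. Each of the 3 had a shared peak, and 5 of their 8 peaks in replicate 1 and 5 of 11 in replicate 2 were shared. By subunit, the shared share in replicate 1 was 60.0% for RPL peaks (95% Wilson interval 50.9% to 68.5%) and 68.0% for RPS peaks (58.4% to 76.2%). In replicate 2 the shares were 67.3% (57.9% to 75.4%) and 75.3% (65.6% to 82.9%), so the intervals of the subunits overlapped in each replicate.

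At the other end of the family, RPL9, RPL10, RPS2, RPS3A and RPS27A each had 1 peak in 1 list alone, with a tally of 3 or 4. RPL34 had 3 peaks, of tallies 3, 3 and 6, all in replicate 1. RPL7A, RPL10A, RPS16 and RPSA had peaks in both lists with none shared, at tallies of 3 to 7. Ribosomal protein genes have many near-identical processed pseudogenes, and the sources used here do not say how reads that match several places were handled, so the tallies of all members, and those of the 6 IDs without a peak, are uncertain in this respect. A gene without a listed peak is not shown to be unbound.

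Peaks of ribosomal protein genes recurred more often than other peaks. Of the 226 member peaks of replicate 1, 144 were shared. This is 63.7% (95% Wilson interval 57.3% to 69.7%), against 35.4% of the other peaks (34.8% to 36.0%). Of the 211 member peaks of replicate 2, 147 were shared, which is 69.7% (63.2% to 75.5%), against 37.0% of the others (36.4% to 37.6%). Over all peaks of each list the shares were 35.7% and 37.3%. The differences were 28.3 and 32.7 percentage points. The intervals cover counting error only, since peaks of one gene are not independent, and both libraries enter each share.

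Member peaks had higher tallies, and peaks with higher tallies recurred more often among other peaks too. Their median tally was 6 in replicate 1 and 5 in replicate 2, against 4 and 4 for other peaks, and 20.8% and 23.2% of them had the lowest tally of 3, against 35.8% and 45.5%. With the other peaks weighted to the members' tallies, 45.5% and 49.4% of them were shared, which left differences of 18.2 and 20.3 points. Within the 31 members and 1039 other IDs whose peaks span 1 to 10 kb with 2 or more peaks in each list, and at equal tallies, the shares were 70.1% against 54.5% in replicate 1 and 73.7% against 55.8% in replicate 2. Peaks were denser in these members, with a median of 1.57 per kb of span in each list against 1.09, and the part of denser peaks in the difference was not tested.

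The gap was present at low and middle tallies in both replicates and reached higher tallies in replicate 2. At a tally of 4, 59.0% of the 39 member peaks of replicate 1 (43.4% to 72.9%) and 57.9% of the 38 of replicate 2 (42.2% to 72.1%) were shared, against 24.4% and 34.5% of other peaks. At a tally of 3 the shares were 27.7% (16.9% to 41.8%) and 34.7% (22.9% to 48.7%), against 11.9% and 15.5%. At tallies of 6 and 7, the share was 71.4% in replicate 1 (54.9% to 83.7%) and 86.8% in replicate 2 (72.7% to 94.2%), against 49.0% and 60.0% of other peaks. For peaks with a tally of 5, the intervals of members and others did not overlap in replicate 1 but did in replicate 2. At tallies of 8 and 9 the shares were 78.8% (62.2% to 89.3%) and 95.5% (78.2% to 99.2%), against 65.4% (63.2% to 67.6%) and 74.1% (71.7% to 76.4%). At 10 to 14 they were 86.2% in replicate 1 (69.4% to 94.5%), against 81.9%, and 30 of 30 in replicate 2 (88.6% to 100%), against 84.8% (82.9% to 86.6%). The intervals of members and others thus overlapped in replicate 1 and not in replicate 2 at these tallies. At a tally of 15 or more, 16 of 17 and 7 of 7 member peaks were shared, against 94.9% and 96.0% of the others, so that no gap was detectable there. In lists cut to the strongest 10% by the deposited p, the difference was 5.51 points in replicate 1 and 0.374 points in replicate 2, over 38 and 40 member peaks.

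**Figure D3:**
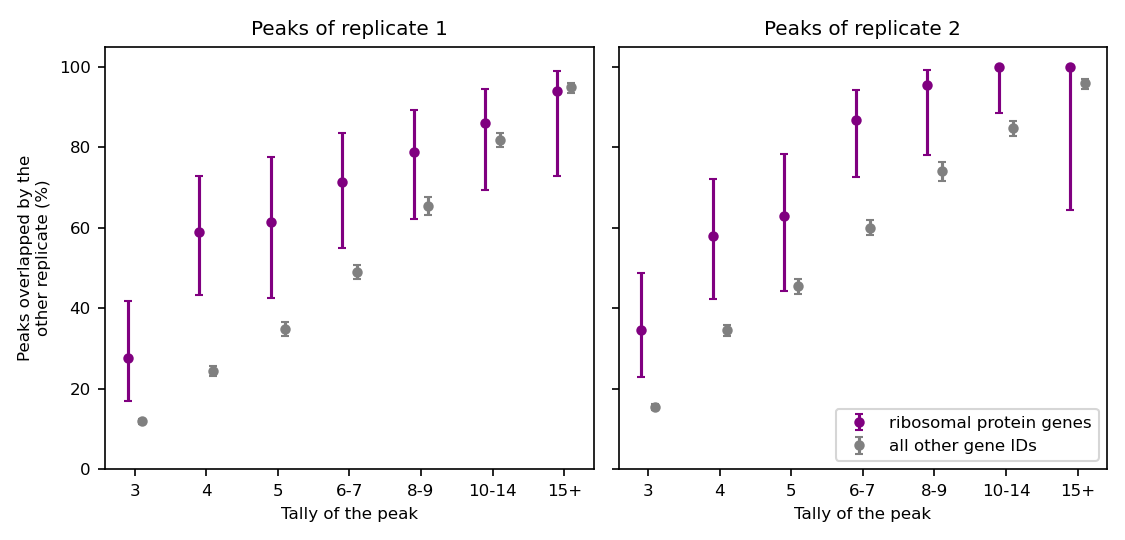
Share of peaks overlapped by the other replicate (vertical axis, percent) by the tally of the peak (horizontal axis), for ribosomal protein genes (purple) and all other IDs (grey), with 95% Wilson intervals. The share of member peaks lies above that of the others at tallies of 3 to 14 in both replicates, for example 59.0% against 24.4% at a tally of 4 in replicate 1. The intervals overlap from a tally of 8 in replicate 1, and at 5 and at 15 or more in replicate 2.

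Shared peaks lay at nearly the same place. Over the 144 shared member peaks of replicate 1, each paired with the replicate 2 peak that overlaps it most, the inner intervals given in the lists had a median distance of 6 nt between their centres, and in 94 pairs (65.3%) this distance was 10 nt or less. Every partner was listed under the same gene ID. Spearman's rho between the tallies of the pairs was 0.54, and Pearson's r of their log2 values 0.59, against 0.60 and 0.68 for the 9102 other pairs. These are descriptions across peaks of the same 2 libraries, and a few pairs share a partner. Summed tallies of the 53 genes had a rho of 0.85 between the libraries, and r was 0.78 on log2(1 + tally). Over the genes with peaks in both lists, rho was 0.82 for the 47 members and 0.72 for the other IDs.

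**Figure D4:**
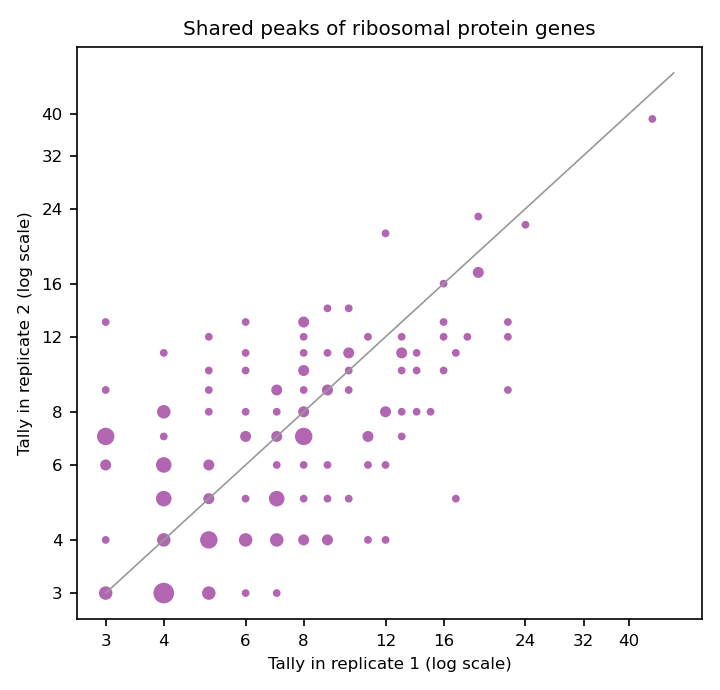
Tallies of the 144 shared peaks of ribosomal protein genes in replicate 1 (horizontal, log scale) and replicate 2 (vertical, log scale); the area of a point gives the number of pairs at that position, and the line marks equal tallies. The RPL23 site at 45 and 39 stands highest, and weak pairs scatter widely about the line (Spearman rho 0.54).

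Peaks found in 1 library alone were weak and narrow. Their median tally was 4 in replicate 1 and 3.5 in replicate 2, against 7 and 7 for the shared ones, and their median width was 31.5 and 32 nt against 51 and 49 nt. Width itself raises the chance of an overlap. The strongest unshared peaks of replicate 1, after that of RPS23, were those of RPL19 (tally 13, at chr17:37360852-37360975), which ended its row of peaks on the 3′ side, and RPS18 (tally 11). For RPS18 the nearest replicate 2 peak was 27 nt away and for RPL19 it was 502 nt away. In replicate 2 the strongest were those of RPS12, with a tally of 9 and a replicate 1 peak 36 nt away, and RPS4X and RPS14, with 7 each and the nearest peak 580 and 858 nt away; RPS16 and RPL13 also had unshared peaks of 7, with a less extreme p. Some of these unshared peaks thus lay beside a peak of the other library and others stood alone.

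Along the gene, member peaks gathered at both ends of the span. Among the 31 members whose peaks span 1 to 10 kb with 2 or more peaks in each list, the span was cut into 3 equal parts in the direction of transcription. The 5′ part held 37.9% of the 177 peaks of replicate 1 and 37.7% of the 175 of replicate 2, the middle 14.1% and 17.1%, and the 3′ part 48.0% and 45.1%. The strongest peak of the gene lay in the 3′ part in 21 members in replicate 1 and 17 in replicate 2, in the middle in 1 and 3, and in the 5′ part in 9 and 11. Among 1039 other IDs of the same span range, the 5′ part held 29.1% and 33.0% of the peaks, the middle 18.8% and 18.3%, and the 3′ part 52.2% and 48.7%. The lean toward the ends is thus also present in other genes of this size. The ends of a span are set by peaks, so each span has a peak at both ends by construction, and the parts are not exons or untranslated regions.

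Neighbouring peaks of a member lay closer together than those of other IDs, with a median gap of 454 nt in replicate 1 and 440 nt in replicate 2 against 759 and 679 nt. Some abut: 6.25% and 9.94% of the neighbouring pairs of member peaks had no base between them, against 4.46% and 9.82% in other IDs, so a site can be listed as several peaks. Peak widths were alike, with medians of 43.5 and 43 nt for members and 42 and 39 nt for the others. Very narrow peaks of 10 nt or less made up 7.08% and 12.3% of the member peaks and 6.02% and 8.52% of the others. At a tally of 3, member peaks had a median width of 22 and 18 nt against 32 and 31 nt. Only 1 member peak of replicate 1 and 3 of replicate 2 were listed under more than 1 gene ID, so double listing had little part in these counts.

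The libraries gave the family nearly the same weight. The log2 ratio of its share of peaks, replicate 2 over replicate 1, was -0.06 (95% interval from counts -0.33 to 0.21). The summed tally was higher in replicate 1 in 33 members, higher in replicate 2 in 18 and equal in 2, while all tallies of replicate 1 also summed to more. RPL8, a protein at the peptidyl transferase centre, differed most, with 6 peaks and a summed tally of 41 in replicate 1 against 2 peaks and 12 in replicate 2. RPL30, RPS23, RPL37A and RPS3 followed, with differences of 27, 26, 26 and 25, all higher in replicate 1. Among genes higher in replicate 2, RPL35 had 12 against 31, and RPL13 and RPLP0 had 23 against 41 and 6 against 24; these 3 were chosen after their values were seen.

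On chromosome 19, where replicate 2 held a larger share of all peaks, the 7 members with a peak were counted apart. Their 42 and 39 peaks gave a log2 ratio of shares, replicate 2 over replicate 1, of -0.07 (-0.70 to 0.56). The 986 and 1449 peaks of other IDs there gave 0.59 (0.48 to 0.71). The other IDs exceeded the members by 0.66 (0.02 to 1.30). This chromosome was singled out for its excess in replicate 2, and that excess lies in these same other peaks. The interval does not allow for that choice, so no difference between members and other IDs is drawn from it. It covers counting error only, and the member peaks come from 7 genes whose peaks are not independent. RPS19, the gene most often mutated in Diamond-Blackfan anaemia, had its strongest peak of replicate 2 at chr19:42373783-42373824, with a tally of 13, where replicate 1 had a peak with a tally of 3.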

How the data were processed

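The data are 2 peak lists of MSI2 CLIP-seq from NB4 cells, 1 for each replicate. The submitters' processing notes name STAR 2.3.0e, Bowtie 1.0.0 and cutadapt, with build hg19, and the names of the deposited lists record trimming of poly(A) and adapters and removal of duplicates. The sources used here do not name the peak caller. Peaks come with a p-value that the authors computed, deposited per peak; it served here for ranking and for stricter lists. Positions are hg19, 1-based. Whether duplicates were removed by molecular identifiers is not stated, so intervals cover counting error only.

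Neither the lists nor the reference table pair Ensembl IDs with symbols. On each chromosome, member IDs were matched in order, 1 to 1 and with the smallest total distance, to the cytosolic ribosomal protein genes of RefSeq (84 candidates, GRCh38.p14). This named 53 members. Ribosomal protein genes that are not among the 59 IDs count with the other IDs wherever they had a peak. The strand agreed in the 44 with a strand in the table, and the peak span fitted the gene's length in 52; RPL37A exceeded it through a peak with a tally of 3. These symbols are assigned by position and are not given by the files. Other gene lists and cell type markers that had been planned could not be named in this way and were not analysed here. RefSeq lists several starts for some genes, and the first was used.

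Shares carry 95% Wilson intervals, and no test was run, as both libraries form 1 group. The interval of a log2 ratio of shares comes from the binomial counts. The overlap search was tested on simulated data with planted overlaps. Members named are the 15 with the largest summed tallies, the 5 that differ most between lists, those holding the 3 strongest unshared peaks of each list, and those without a peak; the values of some members, named by this rule or not, are not reported here singly, though they enter all counts. The members and lists were chosen with earlier results of these data known. Alternatives covered the overlap rule, stricter lists, merged peaks, repeated intervals and equal tallies. Calculations used pandas 2.3.3, matplotlib 3.10.9, SciPy 1.17.1 and NumPy 2.4.6 under Python 3.11.15.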

Additional observations from a re-analysis of the deposited data

How the results depend on the processing

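Of 68 recomputed values, 48 stayed within the margin set for them and 20 moved, and no difference changed sign. The 48 include the values with a replicate left out. Those count members with any peak in the remaining list, so they cannot test sharing. Counting each interval once kept the member copy, so it could hardly change the members' own values. The 48 are therefore not a measure of stability. With a reciprocal overlap of 50% the shared share of member peaks was 50% in replicate 1 and 53.6% in replicate 2, and with peaks extended by 100 nt it was 77.4% and 82.9%, since the rule itself sets what counts as shared. In the strongest 10% of each list it was 57.5% in replicate 2. The difference from other peaks fell to 5.51 and 0.374 points there, to 18.7 and 15 points with a tally of 5 or more, and to 21.5 points in replicate 2 with the stronger 50%. Within equal tallies it was 18.2 and 20.3 points, and within equal tallies and spans of 1 to 10 kb, chosen after seeing the data, 15.5 and 17.9 points. Shorter lists hold fewer peaks by construction: the strongest 10% left 38 and 40 member peaks, 17 members in both lists and 15 with a shared peak, and a tally of 5 or more left 140 and 124 member peaks. With either replicate left out, 50 members carry a peak in the other. The log2 ratio of the family's share of peaks had no settled sign, from -0.06 to 0.18 over the alternatives. No paired analysis was possible because both replicates belong to 1 group. The low median tally limits what single peaks can show.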

Other observations

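The core triplet of Musashi sites, TAG in DNA letters, was searched on the transcribed strand in the first 50 bases from the annotated start, in windows of RefSeq on GRCh38.p14. It was present in 13 of 44 members, or 29.5%, and in 29.5% of all 27305 genes of the table, so the shares were the same to this precision. This window is not where the peaks were mapped, and it says nothing of MSI2 binding. At a tally of 3, the median p of the deposited lists was 0.0265 for member peaks of replicate 1 against 0.0252 for others. In replicate 2 it was 0.0241 for both. At a tally of 5, the median p was 0.00231 for member peaks against 0.00260 for others in replicate 1, and 0.00203 against 0.00223 in replicate 2. For peaks with a tally of 8 it was 5.77e-05 against 6.62e-05 in replicate 1, while in replicate 2 the 13 member peaks had a higher median p, 0.000123 against 4.50e-05.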
